A study of Homo sapiens with 6 samples.

Results

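The 10 genes described here encode SWI/SNF chromatin remodelling subunits: ARID1A, ARID1B, ARID2, PBRM1, BRD7, SMARCA2, SMARCA4, SMARCB1, SMARCC1 and SMARCC2. They were chosen by name from the 34913 genes with transcripts in the deposited tables. The rule for the choice uses no measured value, although earlier results of these data were known when it was made. All 10 passed the filter on low counts and were tested. The RNA came from THP-1, a human acute monocytic leukaemia cell line, and the study set cells supplied by the ATCC biorepository against cells supplied by the DSMZ biorepository. Each source had 3 libraries of polyadenylated RNA (replicates 1 to 3), and the labels state that the expansions were independent of each other. Both groups were untreated and grown side by side in RPMI medium with 20% fetal bovine serum, at 37 °C and 5% CO2, for 48 h before a split and 24 h after it, and were harvested in log phase. Each group is 1 stock of 1 line, so a property of the source and a property of the particular vial or its passage history cannot be told apart.

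SWI/SNF complexes use the energy of ATP hydrolysis to slide or evict nucleosomes, and so set how open enhancers and promoters are. A catalytic ATPase (SMARCA4, also called BRG1, or SMARCA2, also called BRM) is joined by a core of SMARCC1, SMARCC2 and SMARCB1. The canonical BAF form carries ARID1A or ARID1B, while the PBAF form carries ARID2, PBRM1 and BRD7 in their place. Several of these genes are recurrently mutated in cancer, and in myeloid leukaemia cells SMARCA4-containing complexes are known to keep MYC transcription going through distal enhancers.

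Library totals lay between 23413428 and 37119721 estimated counts, and the 10 genes had between 1348 and 15954 counts in each library. Of 10 monocytic markers, 9 were at 1 TPM (a level scaled to transcript length and library size) or more in every library, the exception being CD14, and their summed level was 1130 to 1480 TPM in ATCC and 1050 to 1220 TPM in DSMZ. The single monocytic markers did not move together: 6 of the 10 were called by the test described below, 2 higher in DSMZ (MPO 8.27-fold, CSF1R 1.51-fold) and 4 higher in ATCC (CD14 4.02-fold, CD33 2.49-fold, FCGR1A 1.35-fold, SPI1 1.33-fold). Of all tested genes 49.8% were called, 24.1% higher in DSMZ and 25.7% higher in ATCC. CD14 had only 43, 41 and 25 counts in ATCC replicates 1 to 3 and 10, 9 and 9 in DSMZ. The part of the monocytic markers in the differences of the 10 SWI/SNF genes was not tested. Of 6 lymphoid markers, 1 was at 1 TPM or more in every library, and CD3E and MS4A1 were at 0 in all. None of 5 erythroid and megakaryocyte markers reached 1 TPM in every library, and their sums stayed at or below 2.1 TPM. Of 5 epithelial and stromal markers only PECAM1, which monocytes also express, reached it. ATCC replicate 2 stood apart from its fellow libraries: its AT-rich genes were low against ATCC replicates 1 and 3 and its GC-rich genes high, and for the 10 genes its position is shown and values without it are given where they matter.

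ARID2 and PBRM1 of the PBAF-specific arm, both ARID1 genes and the scaffold pair SMARCC1 and SMARCC2 were higher in DSMZ, and the ATPase SMARCA2 was higher in ATCC. Of the 10 genes, 6 were higher in DSMZ (ARID2, PBRM1, SMARCC1, SMARCC2, ARID1A and ARID1B), 1 was higher in ATCC (SMARCA2), and 3 did not pass the test (SMARCA4, SMARCB1 and BRD7), by edgeR's quasi-likelihood test with Benjamini-Hochberg adjustment at a threshold of 0.05. These 7 calls stand against a background of 49.8% of all 14577 tested genes called in either direction, 24.1% higher in DSMZ and 25.7% higher in ATCC. The median log2 fold change (DSMZ minus ATCC) of the 10 was 0.39, against 0.01 over all tested genes. TPM values of the sources did not overlap for 8 of the 10, against 57.2% of all tested genes. These are bulk libraries, so fewer cells carrying a transcript and less of it per cell cannot be told apart. Without ATCC replicate 2, 9 of the 10 were called (7 higher in DSMZ, 2 in ATCC), where the background was 64.0%, made up of 31.7% on the DSMZ side and 32.3% on the ATCC side. With an offset for the GC content of each gene, 8 were called (7 and 1) against a background of 64.6% (31.8% and 32.7%).

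**Figure D1:**
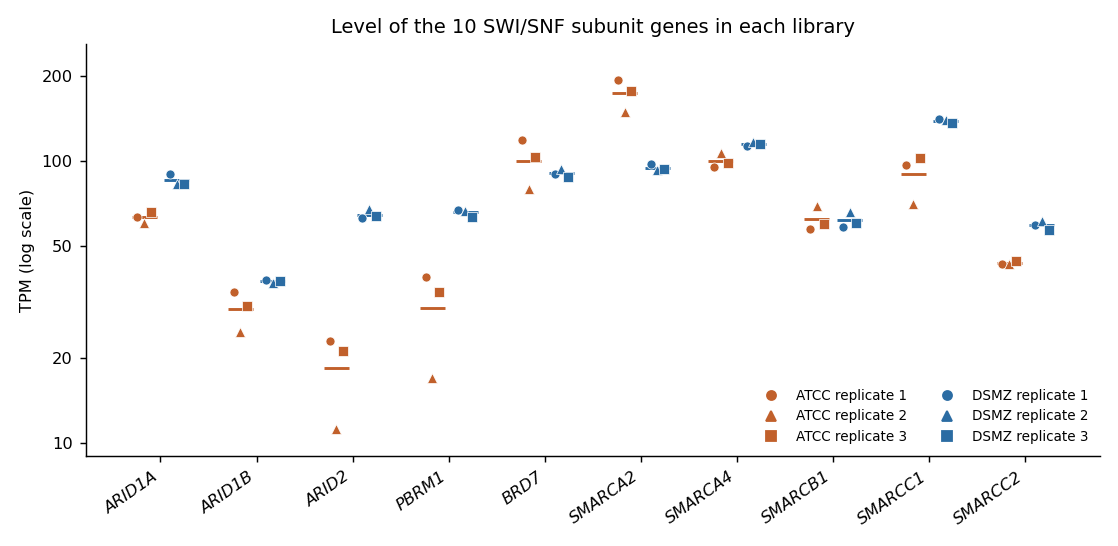
TPM on a log axis of each of the 10 genes (x axis) in each library, with ATCC in orange, DSMZ in blue, 1 symbol shape per replicate number and a bar at the mean of each source. ARID2 and PBRM1 show the widest gap with DSMZ above ATCC, SMARCA2 the widest with ATCC above DSMZ, and ATCC replicate 2 (triangles) lies below its fellow ATCC libraries for 8 of the 10 genes.

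SMARCA2 and SMARCA4 are the 2 alternative ATPases of the complex. The annotated starts of SMARCA2 are spread along the gene. The RefSeq table holds 4 promoter windows for SMARCA2 and 2 for SMARCA4, and shown here are the window with the most CG dinucleotides among the upstream and among the downstream starts of SMARCA2, and the one with the most for SMARCA4. Each window runs from 250 bases before a start to 50 bases after it, on the plus strand of GRCh38.p14, with every CG dinucleotide (the same on both strands) in capitals. CG was searched because its density separates broadly used promoters from others. At least 1 CG stands in 96.0% of the 35116 windows of that length in the table, and the median window has 14. Of the 10 genes, 7 had an entry there.
SMARCA2, upstream start, chr9:2015097-2015396: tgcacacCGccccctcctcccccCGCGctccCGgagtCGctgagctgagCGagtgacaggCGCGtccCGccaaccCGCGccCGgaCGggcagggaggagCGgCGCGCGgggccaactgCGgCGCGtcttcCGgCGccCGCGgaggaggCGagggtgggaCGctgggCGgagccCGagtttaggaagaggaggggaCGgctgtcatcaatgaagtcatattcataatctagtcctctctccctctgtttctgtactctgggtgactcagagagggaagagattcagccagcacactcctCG
SMARCA2, downstream start, chr9:2158214-2158513: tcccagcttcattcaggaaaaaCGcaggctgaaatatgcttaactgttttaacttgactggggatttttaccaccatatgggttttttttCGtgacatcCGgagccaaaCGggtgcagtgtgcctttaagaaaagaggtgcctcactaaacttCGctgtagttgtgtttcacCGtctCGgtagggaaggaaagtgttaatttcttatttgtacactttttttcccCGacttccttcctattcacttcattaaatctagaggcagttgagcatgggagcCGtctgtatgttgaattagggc
SMARCA4, chr19:10960780-10961079: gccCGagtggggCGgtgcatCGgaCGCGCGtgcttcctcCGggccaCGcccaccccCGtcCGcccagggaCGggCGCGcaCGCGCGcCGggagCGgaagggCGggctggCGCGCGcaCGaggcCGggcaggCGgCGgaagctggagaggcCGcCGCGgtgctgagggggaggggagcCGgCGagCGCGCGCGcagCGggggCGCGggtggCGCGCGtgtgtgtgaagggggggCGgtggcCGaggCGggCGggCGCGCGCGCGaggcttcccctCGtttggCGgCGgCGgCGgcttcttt
The upstream SMARCA2 window holds 30 CG dinucleotides, a number that 22.4% of all windows reach or exceed. Its downstream window holds 9, which 58.4% of windows reach. The SMARCA4 window holds 55, which 0.373% of windows reach. The windows not shown are poorer in CG, with 3 (upstream) and 4 (downstream) for SMARCA2 and 5 for the other SMARCA4 window, numbers that 81.8, 75.5 and 70.4% of windows reach. These counts describe the letters of the windows and say nothing of whether a start was used in these cells.

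SMARCA2 (chromosome 9, 1980290 to 2193624, GRCh38, plus strand) was at 194, 150 and 178 TPM in ATCC replicates 1 to 3 and at 97.9, 93.2 and 93.5 TPM in DSMZ replicates 1 to 3. Every ATCC library was above every DSMZ library. The level was 1.85-fold higher in ATCC, a log2 fold change of -0.88 (SE 0.116, n = 3 per source, edgeR adjusted p = 0.000634). With other processing, including each library left out in turn, it lay between -0.99 and -0.78, and it was called in all 19 alternatives. SMARCA4 (chromosome 19, 10960825 to 11079426, plus strand) was at 95.1, 107 and 98.6 TPM in ATCC and at 113, 117 and 115 TPM in DSMZ. The DSMZ libraries were all above the ATCC libraries, by a small margin. The log2 fold change of 0.14 (SE 0.104) did not pass the test (edgeR adjusted p = 0.292), while without ATCC replicate 2 it was 0.25 (edgeR adjusted p = 0.00479) and with the GC offset 0.21 (edgeR adjusted p = 0.00898).

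The ratio of the ATPases stood apart in the sources. The log2 ratio of SMARCA4 to SMARCA2 TPM was -1.03, -0.48 and -0.85 in ATCC and 0.21, 0.32 and 0.30 in DSMZ, with means of -0.79 ± 0.28 and 0.28 ± 0.061 (SD, n = 3 per source). The sources did not overlap, and the ratio was higher in DSMZ by 1.06 on the log2 scale. No test was run on the ratios. Over the protein-coding transcripts alone the means were -0.997 in ATCC and -0.01 in DSMZ, a difference of 0.98. Over coding transcripts of at least 4000 bases, a limit chosen after seeing the data, they were 0.37 ± 0.36 and 1.32 ± 0.14 (SD, n = 3 per source), a difference of 0.95. Which ATPase had the higher level within a source therefore depended on the transcripts counted, whereas the difference between the sources was close to 1 in all 3 counts. Among the other paralogue pairs, the log2 ratio of ARID1A to ARID1B (1.09 ± 0.20 in ATCC, 1.19 ± 0.056 in DSMZ, SD, n = 3 per source) and that of SMARCC1 to SMARCC2 (1.03 ± 0.28 and 1.23 ± 0.039) overlapped between the sources.

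**Figure D2:**
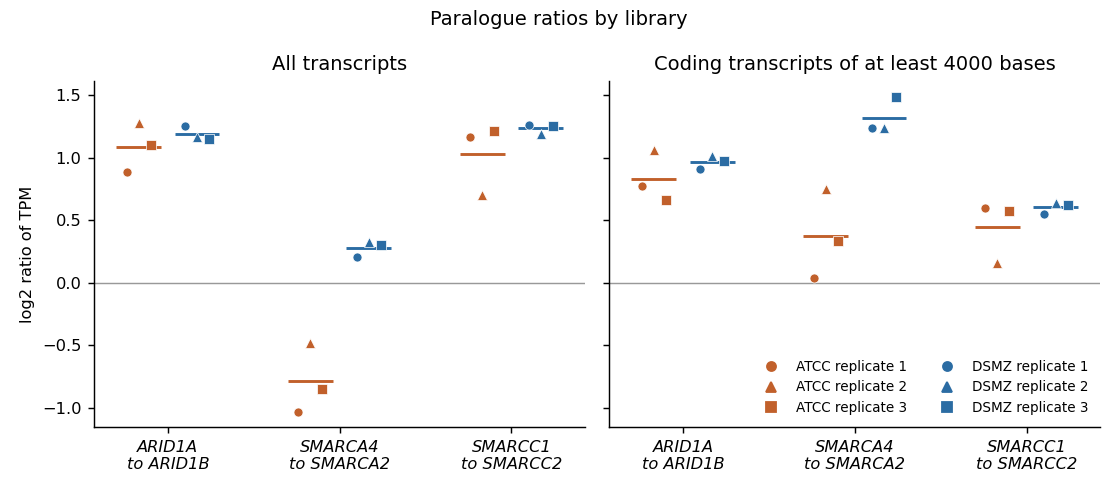
Log2 ratio of TPM (y axis) within 3 pairs of paralogues (x axis) in each library, over all transcripts (left) and over coding transcripts of at least 4000 bases (right), with bars at the means. For SMARCA4 to SMARCA2 the DSMZ libraries lie above the ATCC libraries in both panels, while both sources move up in the right panel, from means of -0.79 and 0.28 to 0.37 and 1.32.

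SMARCA2 has 66 transcripts in the files, more than any other of the 10 genes, and many are short. To see where its difference lay, the transcripts were divided by annotated start, a division made after their values were seen and not tested. The 19 transcripts that start between 1980290 and 2027720, the stretch that holds the upstream window printed above, summed to 53.3, 44.0 and 51.6 TPM in ATCC and 24.2, 25.9 and 25.5 TPM in DSMZ. They carried 65.2 to 69.4% of the gene's counts, and their mean level was 1.97 times higher in ATCC. The 19 transcripts that start between 2032520 and 2123850 summed to 108, 67.4 and 86.4 TPM in ATCC and 53.2, 45.9 and 43.5 TPM in DSMZ, a ratio of 1.84. These middle transcripts carried 19.8 to 25.2% of the counts but the largest summed TPM of the 3 groups in every library. The 28 transcripts that start between 2157680 and 2181571, around the downstream window, summed to 32.9, 38.2 and 39.7 TPM in ATCC and 20.5, 21.5 and 24.5 TPM in DSMZ, a ratio of 1.67, from 6.33 to 14.6% of the counts. In each of the 3 groups every ATCC library was above every DSMZ library.

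**Figure D3:**
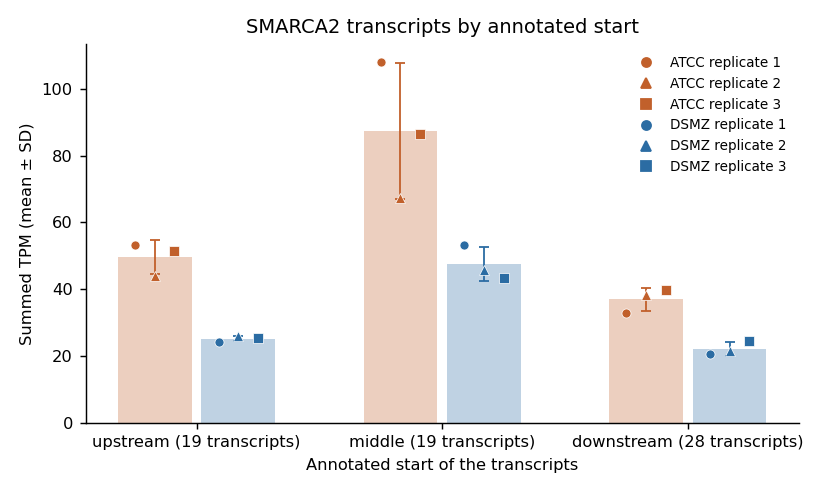
Summed TPM of SMARCA2 transcripts (y axis, mean ± SD over 3 libraries, symbols for single libraries) in 3 groups by annotated start (x axis). ATCC bars exceed DSMZ bars in all 3 groups, by 1.97, 1.84 and 1.67 times from upstream to downstream.

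Of the core subunits, SMARCC1 and SMARCC2 were higher in DSMZ and SMARCB1 did not pass the test. SMARCC1 (BAF155, a scaffold around which the complex assembles; chromosome 3, 47585272 to 47782106, minus strand) was at 97.2, 70.4 and 102 TPM in ATCC and at 141, 140 and 136 TPM in DSMZ. The DSMZ libraries lay close together and above all ATCC libraries, of which replicate 2 was the lowest. The level was 1.55-fold higher in DSMZ, a log2 fold change of 0.63 (SE 0.102, edgeR adjusted p = 0.00171). SMARCC2 (BAF170, its paralogue; chromosome 12, 56162983 to 56189567, minus strand) was at 43.4, 43.3 and 44.2 TPM in ATCC and at 59.2, 61.4 and 57.0 TPM in DSMZ. Its ATCC libraries were nearly equal and all below DSMZ, by 1.36-fold, a log2 fold change of 0.45 (SE 0.090, edgeR adjusted p = 0.00471). Without ATCC replicate 3 its adjusted p was 0.0504, just over the threshold, with a log2 fold change of 0.39. SMARCC2 overlaps MYL6, a myosin light chain gene on the other strand at 2380 TPM in ATCC and 2090 TPM in DSMZ. MYL6 had a log2 fold change of -0.06. The sources used here do not give whether the counting used strand.

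SMARCB1 (SNF5, the subunit that contacts the nucleosome and is lost in rhabdoid tumours; chromosome 22, 23786931 to 23838008, plus strand) was at 57.6, 69.4 and 59.9 TPM in ATCC and at 58.5, 65.9 and 60.6 TPM in DSMZ. The sources overlapped, and replicate 2 was the highest library of each. The log2 fold change was 0.0021 (SE 0.120, edgeR adjusted p = 0.99) and changed sign in 12 of 19 alternatives, with a range from -0.11 to 0.13. In every library 50% of its counts lay on copies of the gene on alternative sequences. Counted on the primary assembly alone its log2 fold change was -0.01.

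In the BAF-specific arm, ARID1A and ARID1B are mutually exclusive subunits that hold the complex together and carry a DNA-binding ARID domain. ARID1A (chromosome 1, 26693236 to 26782110, plus strand) was at 63.3, 60.3 and 65.9 TPM in ATCC and at 90.4, 83.0 and 83.3 TPM in DSMZ. All DSMZ libraries were above all ATCC libraries. The gene was 1.36-fold higher in DSMZ, a log2 fold change of 0.44 (SE 0.079, edgeR adjusted p = 0.00268), and was called in all 19 alternatives. ARID1B (chromosome 6, 156776020 to 157210779, plus strand) was at 34.3, 24.9 and 30.8 TPM in ATCC and at 37.9, 37.0 and 37.6 TPM in DSMZ. The sources did not overlap, though ATCC replicate 1 came close to the DSMZ libraries. Its 1.25-fold difference, a log2 fold change of 0.33 (SE 0.106), was the smallest that passed (edgeR adjusted p = 0.0347). It lost its call when ATCC replicate 3 (edgeR adjusted p = 0.0652) or any 1 of the DSMZ libraries (0.0849 to 0.122) was left out, and kept it without ATCC replicate 1 or 2.

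The 2 genes with the largest differences, ARID2 and PBRM1, belong to the PBAF-specific arm. ARID2 (BAF200, which takes the place of ARID1A or ARID1B; chromosome 12, 45729665 to 45908040, plus strand) was at 23.1, 11.2 and 21.2 TPM in ATCC and at 62.7, 67.5 and 63.8 TPM in DSMZ. Every DSMZ library was far above every ATCC library, and ATCC replicate 2 was the lowest of all. The level was 3.66-fold higher in DSMZ, a log2 fold change of 1.87 (SE 0.224, edgeR adjusted p = 0.0004), and 1.65 without ATCC replicate 2. As a share of the summed TPM of ARID1A, ARID1B and ARID2, ARID2 made up 19.2, 11.6 and 18.0% in ATCC and 32.8, 36.0 and 34.6% in DSMZ. In ATCC it was thus the least abundant of the 3 ARID genes in each library, and in DSMZ it stood above ARID1B in each.

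PBRM1 (BAF180, a subunit with a row of bromodomains that bind acetylated histones; chromosome 3, 52545352 to 52685917, minus strand) was at 38.8, 17.1 and 34.4 TPM in ATCC and at 67.3, 66.7 and 63.3 TPM in DSMZ. The DSMZ libraries were again tightly grouped above all ATCC libraries, with ATCC replicate 2 the lowest. The level was 2.29-fold higher in DSMZ, a log2 fold change of 1.20 (SE 0.251, edgeR adjusted p = 0.00575), and 0.94 (edgeR adjusted p = 4.57e-06) without ATCC replicate 2. PBRM1 overlaps GNL3, a nucleolar protein gene on the other strand, which was at 218 TPM in ATCC and 226 TPM in DSMZ with a log2 fold change of 0.07. BRD7 (the bromodomain partner of ARID2 and PBRM1; chromosome 16, 50313487 to 50368934, minus strand) did not pass the test. It was at 119, 79.6 and 103 TPM in ATCC and at 90.0, 93.7 and 87.6 TPM in DSMZ, so that the DSMZ libraries lay inside the ATCC range. The log2 fold change was -0.10 (SE 0.132, edgeR adjusted p = 0.577). Without ATCC replicate 2, the low end of that range, it was -0.22 and passed (edgeR adjusted p = 0.0114). BRD7 overlaps ADCY7, an adenylate cyclase gene on the other strand, at 24.2 TPM in ATCC and 36.1 TPM in DSMZ.

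The order of the genes by level was not the same in the sources. In ATCC, SMARCA2 stood first (174 ± 22.6 TPM, SD, n = 3) and above every library of the next gene, followed by BRD7, SMARCA4 and SMARCC1, neighbours that overlapped each other. ARID1A and SMARCB1 overlapped below them, SMARCC2 stood clear of both its neighbours, PBRM1 and ARID1B overlapped, and ARID2 was last (18.5 ± 6.41 TPM). In DSMZ, SMARCC1 stood first (139 ± 2.75 TPM, SD, n = 3) and SMARCA4 next (115 ± 1.78 TPM), both clear of their neighbours. SMARCA2, BRD7 and ARID1A followed with overlapping ranges. PBRM1, ARID2, SMARCB1 and SMARCC2 formed a run in which each overlapped the next, from 65.8 to 59.2 TPM on average, and ARID1B was last (37.5 ± 0.478 TPM). TPM is per transcript length, so these levels can be set side by side, with the limit shown above for genes with many short transcripts.

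ATCC replicate 2 was below both other ATCC libraries for 8 of the 10 genes and above both for SMARCB1 and SMARCA4, the genes with the most GC-rich transcripts (58.5 and 59.4% GC). Against the mean of ATCC replicates 1 and 3, its log2 TPM was lower by most for PBRM1 (-1.10) and ARID2 (-0.98), which have the lowest GC content of the 10 (41.3 and 41.2%). BRD7, SMARCC1, ARID1B and SMARCA2 deviated by -0.48, -0.50, -0.39 and -0.31, and ARID1A and SMARCC2, both near 55% GC, by -0.10 and -0.02. Over 10 groups of tested genes by GC content, the median deviation of this library ran from -0.83 in the lowest group to 0.23 in the highest. Each of the 10 genes but SMARCB1 lay below the median of its own group. ARID1B was at -0.39 beside a median of 0.11 and SMARCC1 at -0.50 beside -0.05. What set them below their groups was not tested. With the GC offset, the log2 fold changes were 1.78 for ARID2, 1.11 for PBRM1, 0.65 for SMARCC1 and -0.86 for SMARCA2, each close to its value without it.

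**Figure D4:**
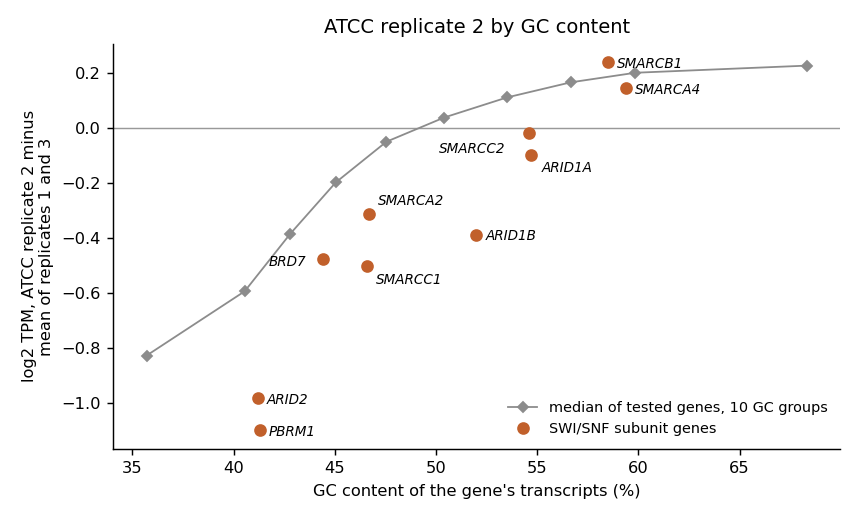
Deviation of ATCC replicate 2 from the mean of ATCC replicates 1 and 3 in log2 TPM (y axis) against the GC content of the gene's transcripts (x axis), for the 10 genes (orange) and for the medians of 10 groups of tested genes (grey line). Both the genes and the groups run from low to high with GC content. All of the genes but SMARCB1 lie below the line, with PBRM1 and ARID2 the lowest at -1.10 and -0.98.

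Genes near some of the 10 differed in the same direction. Beside the counts below, 24.1% of all tested genes were called higher in DSMZ and 25.7% higher in ATCC. Around ARID2, the 63 other tested genes that start within 5 Mb had a median log2 fold change of 1.12, with 43 higher and 5 lower in DSMZ by the same test, and 11 of them exceeded ARID2. Within 2 Mb, however, the 13 genes near ARID2 had a median of 0.25. Around SMARCC2, on the same chromosome, the 140 genes within 5 Mb had a median of 0.41, close to the 0.45 of SMARCC2 itself, with 74 higher and 7 lower in DSMZ. The PBRM1 region (133 genes, median 0.32, 61 higher and 16 lower) and the SMARCC1 region (158 genes, median 0.29, 67 higher and 21 lower) on chromosome 3 were also shifted towards DSMZ, by less than the genes themselves. These regions share genes, since PBRM1 and SMARCC1 start within 5 Mb of each other. Around SMARCA2, 29 genes had a median of -0.10, with 4 higher and 11 lower in DSMZ, and 5 of the 29 were lower than SMARCA2. Over whole chromosomes the medians were 0.20 for chromosome 12, 0.31 for chromosome 3 and -0.41 for chromosome 9. Around ARID1A and ARID1B the medians were 0.13 (22 higher and 14 lower of 105 genes) and 0.03 (6 higher and 10 lower of 38). The part of these regional shifts in the differences of the genes was not tested.

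Transcript usage, the share of each gene's counts that each of its transcripts takes, was tested for 45 transcripts of the 10 genes with limma on log2 odds. None was called after Benjamini-Hochberg adjustment over all 36370 transcripts tested (limma adjusted p from 0.299 to 0.996), and 3 had an unadjusted p under 0.05. The background was 0.236%, or 86 transcripts, which fell to between 1 and 14 with any 1 library left out. This test had little power for small changes on simulated data, where it found 5 of 100 genes with a 2-fold change and 87 of 100 with a 4-fold change. The simulation gave every transcript the same spread and changed only the leading transcript of a gene. In the measured data the SE of the log2 odds was 0.11 for ARID2-201 and 1.11 for SMARCA2-247. These rates therefore need not hold for the 10 genes. ARID2 was carried in every library by the coding transcript ARID2-201, with 71.3, 70.8 and 70.7% of its counts in ATCC and 74.5, 75.4 and 76.6% in DSMZ (limma adjusted p = 0.317). PBRM1 was carried by PBRM1-203 (67.4 to 73.5% over the 6 libraries), BRD7 by BRD7-202 (70.1 to 76.1%) and SMARCC1 by SMARCC1-201 (85.6 to 90.3%). SMARCC2 was divided between SMARCC2-203 (52.9 to 58%) and SMARCC2-201 (36.7 to 41.6%), and ARID1A between ARID1A-212 (52.3 to 57.1%) and ARID1A-201 (34.1 to 40.8%). No transcript dominated SMARCA2, whose leading SMARCA2-204 took between 12.2 and 30.8%. SMARCA2-209 took 4.4, 2.9 and 0.76% in ATCC and 19.5, 14.8 and 3.3% in DSMZ, ranges that overlap between DSMZ replicate 3 and ATCC replicate 1 (limma adjusted p = 0.426).

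The remaining genes of the complex were measured beside the 10. Of 19 such genes, 18 were tested and 7 were called, 4 higher in DSMZ and 3 higher in ATCC, a share of 38.9% that is below the 49.8% background, with a median log2 fold change of 0.02. ACTL6B, the neuronal actin-like subunit, was not tested, with 1 count in 1 library. SMARCD1, a core accessory subunit, was at 23.9, 27.5 and 25.3 TPM in ATCC and at 93.2, 91.0 and 82.1 TPM in DSMZ, 3.29-fold higher in DSMZ (log2 fold change 1.72, SE 0.117, edgeR adjusted p = 3.97e-05). The sources were far apart, and SMARCD1 was the subunit closest to ARID2 in size and direction of difference. It also lies on chromosome 12, from 50084972 to 50100712, where 108 genes within 5 Mb had a median of 0.91. Its start is within 5 Mb of that of ARID2, so the regions of these genes share members. Within 2 Mb the medians were 1.13 for SMARCD1 and 0.25 for ARID2. Its paralogues SMARCD2 (0.02, edgeR adjusted p = 0.922) and SMARCD3 (-0.34, edgeR adjusted p = 0.141) did not pass. SMARCE1, a DNA-bending subunit of BAF and PBAF (0.46), SS18, the subunit fused in synovial sarcoma (0.45), and its paralogue SS18L1 (0.91) were higher in DSMZ by the same test. ATCC replicate 2 was the lowest library for all 3, and without it the values were 0.33, 0.31 and 0.79, all called. Leaving out any 1 DSMZ library ended the calls of SMARCE1 (edgeR adjusted p from 0.0559 to 0.0696) and SS18 (0.0857 to 0.0986). Of the remaining subunits 2 were then called higher in DSMZ in place of 4. Over all tested genes the share higher in DSMZ went from 24.1% to between 17.2 and 18.1%. SS18 also lost its call without ATCC replicate 3 (edgeR adjusted p = 0.0585).

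DPF3, a reader of acetylated histones known from heart and muscle, had 104, 73 and 100 counts in ATCC and 1, 3 and 6 in DSMZ. Even in ATCC it was at 1.8 ± 0.547 TPM (SD, n = 3), and its log2 fold change of -4.82 (SE 0.333, edgeR adjusted p = 4.1e-05) rests on the few counts in DSMZ. DPF2, the widely expressed member of its family, was at 46.9, 51.0 and 45.5 TPM in ATCC and at 27.7, 28.2 and 25.6 TPM in DSMZ, 1.69-fold higher in ATCC (log2 fold change -0.76, SE 0.119, edgeR adjusted p = 0.00145). BCL7A was 1.81-fold higher in ATCC (log2 fold change -0.86, edgeR adjusted p = 0.00027), without overlap of the sources. The 86 genes within 5 Mb of BCL7A had a median of -0.29 (3 higher and 38 lower in DSMZ). Around DPF2 the median was -0.38 (18 higher and 104 lower of 216 genes). Around SMARCE1 it was 0.38 (82 higher and 9 lower of 173). The medians were 0.20 around SS18L1, -0.20 around SS18 and -0.06 around DPF3. The part of these regional shifts was not tested. The subunits of the non-canonical form that lacks SMARCB1, BRD9 (-0.25), BICRA (-0.11) and BICRAL (0.21), did not pass the test. With the GC offset BRD9 and BICRAL passed (edgeR adjusted p = 0.0132 and 0.0204), where 64.6% of all tested genes did. PHF10 (0.03), a further PBAF subunit, did not pass the main test (edgeR adjusted p = 0.832). Of the PBAF-specific genes measured, ARID2 and PBRM1 were thus higher in DSMZ while BRD7 and PHF10 were not called.

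**Figure D5:**
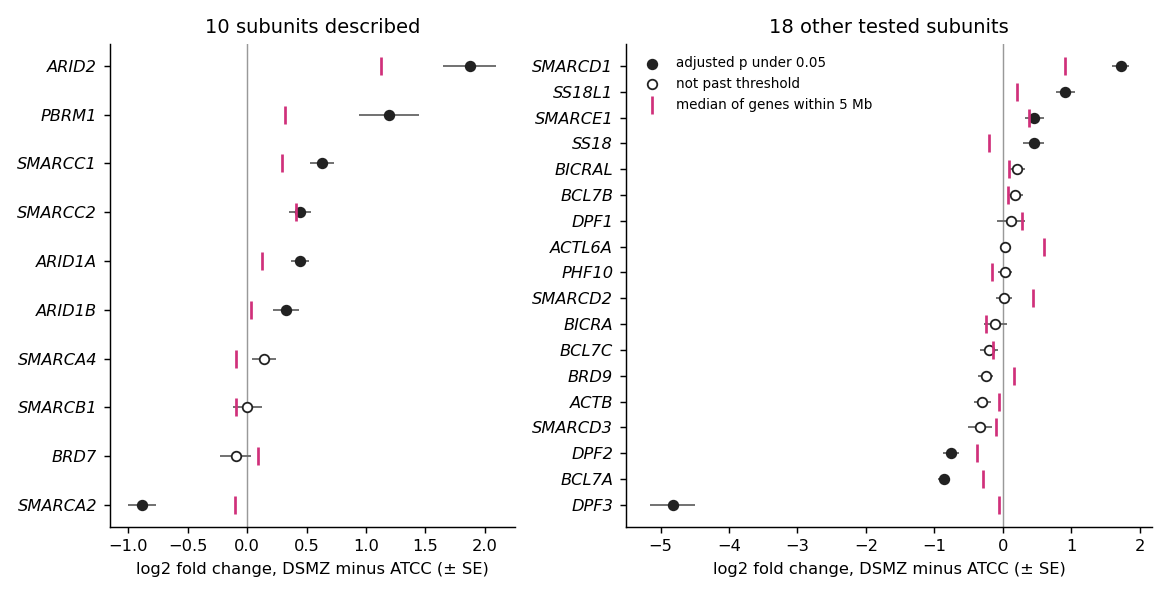
Log2 fold change, DSMZ minus ATCC, with its SE (x axis) for the 10 genes (left) and 18 other tested subunits (right), filled where the edgeR adjusted p was under 0.05, with a tick at the median of tested genes within 5 Mb. ARID2 (1.87) and SMARCD1 (1.72) lie farthest to the right and both have a regional tick near 1, from regions that share genes. DPF3 (-4.82) lies far to the left of its tick.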

How the data were processed

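The submitters' processing notes name bcl2fastq 2.20, Trimmomatic 0.35 and kallisto 0.43.0 as tools and GRCh38 as the genome build. RNA was prepared with TRIzol and RNeasy columns and libraries were stranded, per the labels' protocols. The transcript annotation release and the strand setting are not given in the sources used here. Per the file headers, the authors deposited for each of 179973 transcripts its length, its effective length, an estimated count, which is not normalized, and a TPM value, which is scaled to length and library. Effective lengths were the same in all 6 libraries.

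Transcripts were assigned to GENCODE 29 genes by identifier (163714) or symbol (14222, with 2.42 to 2.85% of counts), and 2037 (0.181 to 0.199% of counts) had no gene and were left out. Estimated counts were summed per gene and rounded to whole numbers. Genes were tested with edgeR 4.0.16 in R 4.3.3 (filterByExpr, TMM, quasi-likelihood F test, source as the only term) over 14577 genes, with Benjamini-Hochberg adjustment and a threshold of 0.05. Each SE was obtained as the size of the log2 fold change over the square root of its F statistic. The biological coefficient of variation was 15.9%. Transcript usage was tested with limma 3.58.1 on log2 odds with a prior count of 0.5, over transcripts with at least 5% of a gene that had at least 50 counts in every library. The labels call the expansions independent but do not say that they came from separate vials, so p-values measure the spread between expansions. No 2 libraries of a source agreed within sampling noise (smallest chi-square per degree of freedom 4.62).

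On data simulated for this comparison, over 14391 genes, the gene test recovered 17 of 67 genes at a true 1.5-fold difference. It recovered 50 of 67 at 2-fold and all 66 at 4-fold, and it called 7 unchanged genes. The simulation changed only these few genes, with the same spread for every gene and no GC trend in ATCC replicate 2. In the measured data 49.8% of genes were called, so these rates need not hold there. The usage test, over 9216 genes, made 13 false calls in its own simulation, which gave every transcript the same spread. The members and lists were chosen with earlier results of these data known. Named were all 10 genes, the tested genes of the list of other SWI/SNF subunits, up to 3 called genes with the largest absolute log2 fold change from each of 3 other remodeller families, and up to 4 leading transcripts per gene. Genes overlapping the 10 on the other strand and the monocytic markers that differed were named after their values were seen. Alternatives were other normalizations, filters, tests, transcript sets, a length offset, a GC offset, a replicate block and each library left out, with DESeq2 1.42.0 and limma on log2(TPM + 0.5) among them. Promoter windows are from RefSeq on GRCh38.p14. Figures were drawn with matplotlib 3.10.9.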

Additional observations from a re-analysis of the deposited data

How the results depend on the processing

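Over 19 alternatives, ARID1A, ARID2, PBRM1, SMARCA2 and SMARCC1 kept their direction and their calls, and ARID1B, SMARCC2, SMARCA4 and BRD7 kept their direction. The number of the 10 genes called lay between 5 (without ATCC replicate 3) and 9 (without ATCC replicate 2). The share of all tested genes called moved too, and was 39.7% and 64.0% in these settings. The log2 fold change of SMARCB1, 0.0021 as reported, became -0.0037 with DESeq2 and with RLE normalization, -0.0117 with a filter of 1 CPM in 3 libraries, -0.006 with no filter, -0.0126 and -0.0125 with limma on log2 TPM with pseudocounts of 0.1 and 0.5, -0.0137 on the primary assembly alone, -0.0039 with a length offset and -0.0848 with upper quartile normalization, and ranged from -0.1134 to 0.1256 with 1 library left out. ARID1B lost its call with limma on TPM (adjusted p = 0.078 and 0.0785) and with upper quartile normalization (0.0712). No transcript of the 10 genes was called in any of the 9 alternatives of the usage test, which over all genes called 58 and 67 transcripts with another filter and prior count, 1 to 14 with 1 library left out and 0 with the replicate block.

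The replicate numbers were not taken to pair the libraries, since deviations of same-numbered libraries correlated with r = 0.026, 0.131 and 0.215, not all above 0.1. ATCC replicates 2 and 3 correlated best with their own number, and ATCC replicate 1 with DSMZ replicate 3 (0.055). With a replicate block 7015 genes were called in place of 7265, and 6 of the 10, with ARID1B at an adjusted p of 0.0507.

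With the GC offset, counts of called genes went from 7 to 11 for the other SWI/SNF subunits and from 9 to 17 for CHD and NuRD. They went from 9 to 16 for INO80, SRCAP and TIP60, while ISWI stayed at 6. These were shares of 61.1, 85.0, 69.6 and 54.5%, while the share of all tested genes called rose from 49.8 to 64.6%. With the replicate block and the GC offset together the counts were 11, 16, 14 and, for ISWI, 8, where 64.2% of all tested genes were called. With limma on TPM the ISWI count was 4. With 1 library left out the CHD and NuRD count ranged from 5 (without DSMZ replicate 1) to 16 (without ATCC replicate 2). The shares of all tested genes called in these 2 settings were 38.8% and 64.0%. Within 2 Mb in place of 5 Mb, the regional median was 0.25 for ARID2, 0.17 for PBRM1 and -0.18 for SMARCB1, and it changed sign for ARID1B (-0.34) and BRD7 (-0.0334). The cause of these shifts was not tested. Depth did not limit the 10 genes, which had at least 1348 counts in each library, but it limits DPF3 in DSMZ.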

Other observations

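Other families of ATP-dependent remodellers, which slide, space or exchange nucleosomes with other ATPases, were read from the same test. Of 11 genes of the ISWI family, 6 were higher in DSMZ and none was higher in ATCC, a share of 54.5% called against the 49.8% background, with a median log2 fold change of 0.44. With limma on log2(TPM + 0.5) 4 were called, a share of 36.4% that lies below that test's background of 44.1%. BAZ2B, an accessory bromodomain protein, was at 13.3, 5.1 and 7.9 TPM in ATCC and at 22.2, 25.3 and 25.3 TPM in DSMZ (log2 fold change 1.63, SE 0.294, edgeR adjusted p = 0.00289, and 1.36 without ATCC replicate 2). CECR2 (1.68) and the ATPase SMARCA1 (1.76) were also higher in DSMZ but lay under 2 TPM in every library. All 3 were without overlap of the sources, for SMARCA1 by little, with 0.634 TPM in ATCC replicate 1 and 0.647 TPM in DSMZ replicate 3. SMARCA1 had only 8 to 75 counts per library. With limma on log2(TPM + 0.5) its log2 fold change was 0.63 and was not called (limma adjusted p = 0.0522).

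Of 20 CHD and NuRD genes, 9 were called (7 higher in DSMZ, 2 in ATCC), a share of 45.0% that lies below the 49.8% background. Without ATCC replicate 2, 16 were called (14 and 2), a share of 80.0% against a background of 64.0%. RBBP7, a histone-binding subunit, was at 162, 149 and 164 TPM in ATCC and at 77.5, 81.4 and 72.6 TPM in DSMZ, 2.03-fold higher in ATCC (log2 fold change -1.02, SE 0.080, edgeR adjusted p = 6.8e-05). CHD6 (0.99) and CHD5 (2.03), the latter under 1 TPM in every library, were higher in DSMZ, with values of 0.79 and 2.35 without ATCC replicate 2, which was the lowest ATCC library for CHD6 and the highest for CHD5. Of 23 genes of the INO80, SRCAP and TIP60 complexes, 9 were called (6 higher in DSMZ, 3 in ATCC), a share of 39.1% against the 49.8% background. The balance of directions moved with the setting, to 7 and 9 with the GC offset and 5 and 6 without ATCC replicate 1. It was 4 and 2 without DSMZ replicate 2, and 5 and 1 without DSMZ replicate 3. Over all tested genes the shares were 31.8 and 32.7%, 24.2 and 26.0%, 17.2 and 19.8%, and 18.1 and 20.0%, in the same order. MCRS1, an INO80 subunit on chromosome 12, was at 30.1, 39.1 and 37.4 TPM in ATCC and at 81.5, 84.9 and 79.3 TPM in DSMZ (log2 fold change 1.19, SE 0.120, edgeR adjusted p = 0.000192). MCRS1 starts within 2 Mb of SMARCD1 and within 5 Mb of ARID2, so it belongs to both regions described above. The median log2 fold change was 1.13 within 2 Mb of SMARCD1 and 1.12 within 5 Mb of ARID2. The part of the region in the difference of MCRS1 was not tested. INO80D (1.31) was higher in DSMZ, and UCHL5 (-0.77), a deubiquitinase that joins INO80, was higher in ATCC. ATCC replicate 2 was the lowest ATCC library for both, and without it they were at 1.10 and -0.99. UCHL5 lost its call without DSMZ replicate 3 (edgeR adjusted p = 0.0625).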
